A study of Mus musculus with 6 samples.

Results

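The genes described here were 9 members of the epithelial pericellular proteolysis system in mouse endometrium: the transmembrane serine proteases Tmprss2, Tmprss4, Tmprss11g, Tmprss13 and St14, the serine proteases Prss8 and Prss22, and the Kunitz-type inhibitors Spint1 and Spint2. They were taken by symbol from the 44788 genes of a count table with 6 libraries, and they had been picked with their difference between the 2 groups of libraries in view. Their differences between the groups are therefore given as a description. The calls made on them in the fits to all genes are no test of them. Neither these calls nor the counts of members that lay lower or higher support anything beyond the description. All 9 members passed the filter on low counts and were among the 16581 genes tested.

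Type II transmembrane serine proteases are held in the cell membrane by a segment near their amino terminus and carry a trypsin-like catalytic domain outside the cell. They are made as inactive precursors and can activate each other, growth factors, receptors and channels; matriptase, encoded by St14, and the lipid-anchored prostasin, encoded by Prss8, form the best known such pair in epithelia. The Kunitz-type inhibitors HAI-1 (Spint1) and HAI-2 (Spint2) sit in the same membranes and block these proteases. In the uterus, proteases of this kind act at the luminal epithelium, where the epithelial sodium channel and the receptor PAR2 are among the known targets.

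The study measured RNA from endometrium on day 4 of pregnancy in ICR mice with adenomyosis, a growth of endometrial tissue into the uterine muscle, which was induced by tamoxifen. Both groups, controls included, had been dosed by mouth with tamoxifen as newborns (2.7 µmol/kg, postnatal days 2 to 5). When 75 days had passed, 8 mice received the gonadotropin-releasing hormone (GnRH) agonist, spelled Decapetyl in the labels, by intraperitoneal injection. The daily dose was 1.5 µg per 100 g of body weight, from day 3 to day 9 of estrus. Another 8 mice received the solvent, and mating followed 4 weeks later. The no-agonist group and the agonist group had 3 libraries each, numbered here 1 to 3 within each group only as names. The tissue was scraped from the uterus, so each library mixes cell types, and fewer cells of a type and less RNA per cell cannot be told apart. No label says whether a library came from 1 mouse or several, so the spread between libraries may be partly technical.

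The 7 proteases share the catalytic serine motif, and its coding bases are shown because they separate these genes from the inhibitors Spint1 and Spint2. Genes other than the members were not searched, so the motif is not shown to be particular to them. Codons for glycine, aspartate, serine, glycine, glycine and proline in that order were searched in frame in the longest coding transcript of each gene in GENCODE M21 (build GRCm38); each protease had 1 match and Spint1 and Spint2 had 0. Each line gives the 30 coding bases around it, 5′ to 3′ on the coding strand, with the codon of the catalytic serine in capitals.
Tmprss2: tgccagggagacAGTggagggccgctggtt
Tmprss4: tgccagggtgacAGTggtgggcctttgatg
Tmprss13: tgccagggagacAGTggaggacctctcgtc
Tmprss11g: tgtgaaggtgatTCTggagggcctctggtt
St14: tgccagggtgacTCTggtggccccttgtca
Prss8: tgccagggtgacTCTgggggcccactctct
Prss22: tgtctgggcgacTCTgggggtcccctgatg
The serine is written AGT in Tmprss2, Tmprss4 and Tmprss13 and TCT in Tmprss11g, St14, Prss8 and Prss22. Any 2 of the 7 stretches shared 19 to 26 of their 30 bases, with Tmprss2 and Tmprss13 sharing 26 and St14 and Prss8 sharing 25. In all 7 genes the first 6 bases are the end of 1 exon and the remainder begins the next, so the stretches are spliced and not contiguous in the genome. The stretch lies on chr9:31090004-31090407 across exons 18 and 19 of 19 in St14, and on chr9:45173984-45175107 across exons 11 and 12 of 13 in Tmprss4. In Tmprss11g it lies on chr5:86487537-86489188 across exons 9 and 10 of 10, and in Prss8 on chr7:127926617-127926750 across exons 5 and 6 of 6; all 4 genes are on the minus strand.

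Counts per library summed to 11720958 to 14104266. Levels are given as CPM, counts per 1000000 of the library total after scaling by TMM factors, and 3 counts corresponded to 0.204 to 0.276 CPM. Libraries of the same group differed beyond sampling noise (chi-square per degree of freedom 58.3 to 112), so none was merged. The ribosomal gene Rn18s-rs5 took 0.254% to 3.31% of the counts and mitochondrial genes took 1.22% to 3.89%. Over all genes, 0% were called higher and 0% lower with the agonist by edgeR (quasi-likelihood test, adjusted p under 0.05 after Benjamini and Hochberg). At an unadjusted p under 0.05 it gave 4.17% higher and 5.09% lower. Genes whose 3 agonist libraries all lay above the 3 no-agonist libraries made up 6.94%, and those that lay below made up 7.61%. DESeq2, run as an alternative, called 0.87% of its 16216 genes higher and 1.56% lower.

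Of the 9 members, edgeR called 0 in either direction; at an unadjusted p under 0.05, 4 lay lower and 0 higher. In 5 members (Tmprss11g, Tmprss4, Prss22, St14 and Spint1) all 3 agonist libraries lay below all 3 no-agonist libraries, and in 0 they lay above. DESeq2 called 2 members lower (Tmprss4 and Prss22) and 0 higher, and edgeR's likelihood ratio test called 1 of them, Tmprss4, and not Prss22. The median log2 fold change of the 9 was -0.70, beside 0.018 over all genes tested. Since the members were chosen from this contrast, these calls are no test of them. Nothing is read from these counts against the shares of all genes.

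Tmprss4, a membrane protease of epithelia that can activate the epithelial sodium channel in cultured cells, was the most abundant of the proteases per length in the no-agonist libraries. It measured 411, 508 and 517 CPM there and 217, 178 and 69.4 CPM in agonist libraries 1, 2 and 3. The groups did not overlap, and agonist library 3 was lowest. The means were 155 ± 76.6 CPM with the agonist and 479 ± 58.9 CPM without (SD, n = 3 each), a 3.09-fold lower level and a log2 fold change of -1.63 ± 0.41 (SE).

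Tmprss11g belongs to the subfamily of airway trypsin-like and DESC proteases, whose genes lie side by side on chromosome 5. It measured 52.9, 72.8 and 117 CPM without the agonist, against 14.5, 26.7 and 0.692 CPM with it. The last value rests on 9 counts and has an exact 95% Poisson interval of 0.317 to 1.31 CPM, which covers counting error only. The groups did not overlap, but the agonist libraries differed among themselves by 38.5-fold between the highest and the lowest. The means were 14 ± 13 and 80.8 ± 32.6 CPM (SD, n = 3 each), 5.78-fold lower with the agonist, with a log2 fold change of -2.53 ± 0.94 (SE).

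The low agonist library 3 also stood apart in other genes. The summed level of 11 squamous epithelial markers, which include basal keratins, was 51.8 CPM in it, and 328 to 693 CPM in the other 5 libraries; 7 of the 11 were tested, 3 with a log2 fold change above 0 and 4 below. Its part in the Tmprss4 and Tmprss11g values was not tested. Without agonist library 3, the log2 fold change of Tmprss4 was -1.27 and that of Tmprss11g -1.97.

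St14 encodes matriptase, which activates prostasin and hepatocyte growth factor and maintains epithelial barriers. It measured 429, 563 and 544 CPM without the agonist, against 386, 329 and 230 CPM with it. The groups did not overlap, and the highest agonist library lay close under the lowest no-agonist library. The means were 315 ± 78.8 and 512 ± 72.5 CPM (SD, n = 3 each), 1.63-fold lower with the agonist, with a log2 fold change of -0.70 ± 0.26 (SE).

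Tmprss2, an androgen-responsive protease of prostate and other epithelia, measured 106, 97.0 and 114 CPM without the agonist, against 101, 139 and 126 CPM with it. The groups overlapped, and the log2 fold change was 0.21 ± 0.19 (SE), or 0.11 without agonist library 2. Tmprss4 stood 3.87, 5.24 and 4.54 times as high as Tmprss2 in CPM in the no-agonist libraries, and 2.15, 1.28 and 0.55 times as high in the agonist libraries, where the groups did not overlap. The ratio carries the length difference of the 2 genes in every library, so it compares libraries and not the genes.

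Tmprss13, a mosaic protease of stratified epithelia, was the least abundant member per length, at 5.74, 2.18 and 3.95 CPM without the agonist, against 7.38, 5.57 and 12.9 CPM with it. The groups overlapped between no-agonist library 1 and agonist library 2. The agonist mean was 2.18-fold higher, 8.63 ± 3.83 against 3.95 ± 1.78 CPM (SD, n = 3 each), with a log2 fold change of 1.12 ± 0.49 (SE). When CPM were scaled by library totals alone, the groups of Tmprss13 no longer overlapped, and without agonist library 3 the log2 fold change was 0.71.

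Prss8, the lipid-anchored prostasin that matriptase activates, measured 88.5, 97.3 and 44.6 CPM without the agonist, against 75.0, 103 and 134 CPM with it. The groups overlapped, and no-agonist library 3 was lowest and agonist library 3 highest of all 6. The log2 fold change was 0.43 ± 0.34 (SE), and 0.17 without no-agonist library 3. The ratio of St14 to Prss8 was 4.85, 5.79 and 12.2 without the agonist, against 5.14, 3.20 and 1.72 with it, also overlapping.

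Prss22, a secreted tryptase of airway and other epithelia and thus no membrane protein, measured 27.7, 34.2 and 36.1 CPM without the agonist, against 20.3, 13.1 and 11.5 CPM with it. The groups did not overlap. The means were 15 ± 4.70 and 32.7 ± 4.40 CPM (SD, n = 3 each), 2.18-fold lower with the agonist, with a log2 fold change of -1.13 ± 0.28 (SE).

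Spint2, which encodes HAI-2, was the most abundant member per length and measured 812, 933 and 1157 CPM without the agonist, against 832, 417 and 535 CPM with it. The groups overlapped, since agonist library 1 lay above no-agonist library 1. The means were 595 ± 214 and 968 ± 175 CPM (SD, n = 3 each), 1.63-fold lower with the agonist, and the log2 fold change was -0.70 ± 0.32 (SE).

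Spint1, which encodes HAI-1, the matriptase inhibitor, was the steadiest member. It measured 122, 133 and 129 CPM without the agonist, against 107, 105 and 104 CPM with it. The means were 105 ± 1.41 and 128 ± 5.77 CPM (SD, n = 3 each), with no overlap, and the agonist level was 1.21-fold lower, with a log2 fold change of -0.28 ± 0.16 (SE). The 3 agonist libraries had a coefficient of variation of 1.34%, below the 2.66% that counting alone gives at this depth, and those without the agonist 4.52% against 2.57%. Every other member varied more than counting error in both groups, by up to a coefficient of variation of 93.1% for Tmprss11g in the agonist libraries. With library totals alone as the scale, Spint1 still did not overlap, by a narrow margin: the lowest no-agonist library was at 116.4 CPM and the highest agonist library at 115.8 CPM, and the log2 fold change was -0.11.

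**Figure D1:**
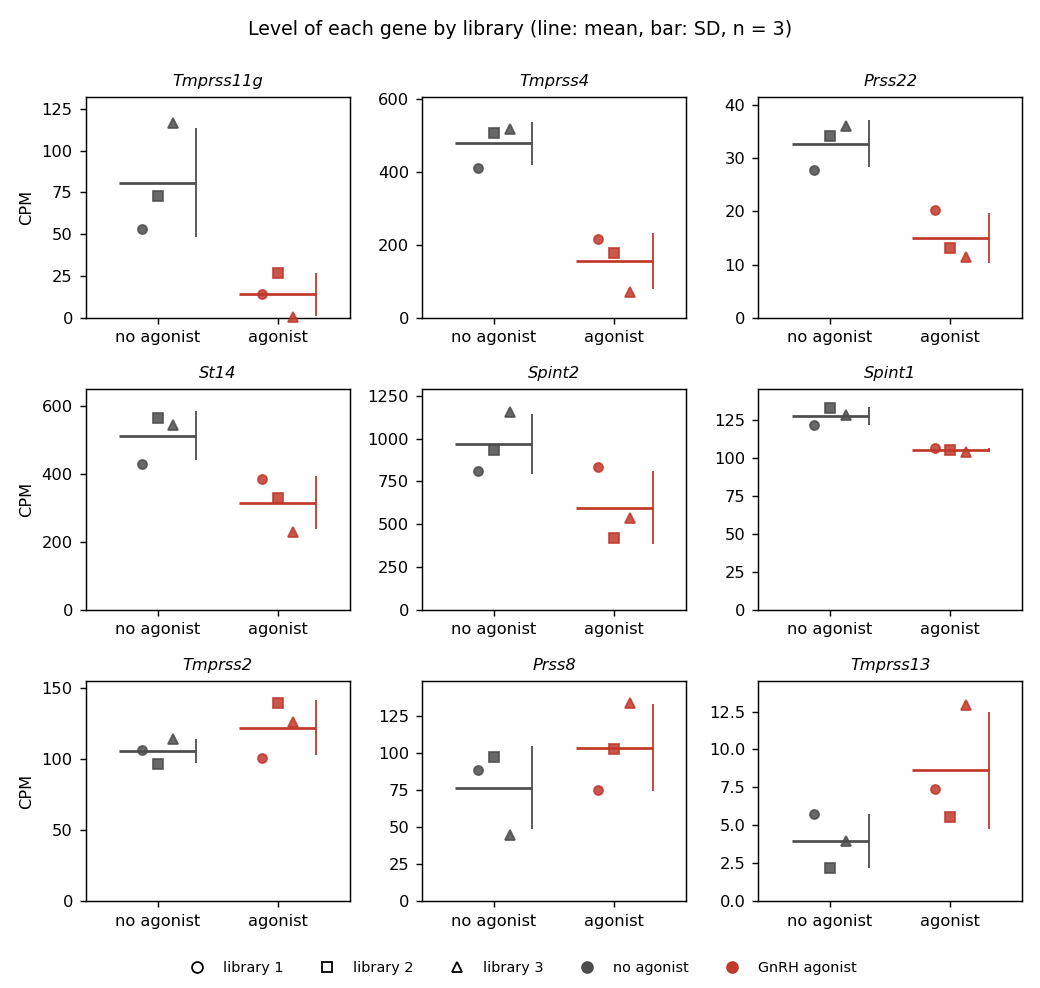
CPM of each of the 9 genes, on axes that start at 0, in the 3 no-agonist (grey) and 3 agonist (red) libraries, with lines for the group means and bars for the SD. Tmprss11g, Tmprss4, Prss22, St14 and Spint1 show no overlap between groups, and the lowest Tmprss11g point, at 0.692 CPM, is agonist library 3.

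The proteases and the inhibitors were also summed. The 7 proteases together measured 1121, 1375 and 1376 CPM without the agonist, against 821, 794 and 584 CPM with it, without overlap. Spint1 and Spint2 together measured 934, 1067 and 1286 CPM and 939, 522 and 640 CPM, with overlap. The ratio of the protease sum to the inhibitor sum was 1.20, 1.29 and 1.07 without the agonist, against 0.88, 1.52 and 0.91 with it, which overlapped. Within the pair of matriptase and its inhibitor, St14 over Spint1 was 3.53, 4.23 and 4.23 without the agonist, against 3.61, 3.13 and 2.21 with it, and these overlapped too.

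Per kilobase of exon, which allows genes to be compared, the order without the agonist was Spint2 at 212 ± 38.4 CPM per kb, Tmprss4 at 185 ± 22.8, St14 at 67.1 ± 9.49, Spint1 at 46.2 ± 2.09 and Prss8 at 41.5 ± 15.2 (SD, n = 3). Prss22 at 24.7 ± 3.33, Tmprss11g at 16.1 ± 6.50, Tmprss2 at 14.5 ± 1.16 and Tmprss13 at 1.22 ± 0.549 CPM per kb followed. The library ranges of Spint2 and Tmprss4 overlapped, as did those of each neighbouring pair from Spint1 down to Tmprss2. The gaps between Tmprss4 and St14, between St14 and Spint1 and between Tmprss2 and Tmprss13 were free of overlap.

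With the agonist the order was Spint2 at 131 ± 46.9, Tmprss4 at 59.8 ± 29.6, Prss8 at 56.0 ± 15.8, St14 at 41.2 ± 10.3 and Spint1 at 38.1 ± 0.510 CPM per kb (SD, n = 3). Tmprss2 followed at 16.7 ± 2.66, Prss22 at 11.3 ± 3.55, Tmprss11g at 2.79 ± 2.59 and Tmprss13 at 2.66 ± 1.18 CPM per kb. The gaps between Spint2 and Tmprss4, between Spint1 and Tmprss2 and between Prss22 and Tmprss11g were free of overlap, and neighbours elsewhere in the order overlapped. Prss8 had rank 5 without the agonist and rank 3 with it. The order depends on the length used: with the longest transcript in place of all exons, Prss22 and Tmprss11g exchanged ranks without the agonist, and with it St14 took rank 2, Tmprss4 rank 3 and Prss8 rank 4.

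**Figure D2:**
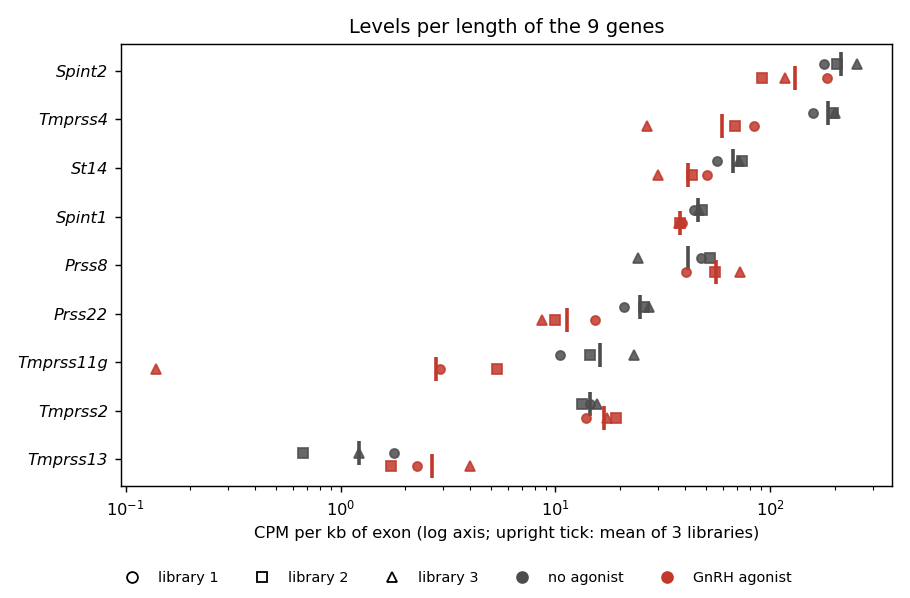
CPM per kilobase of exon on a log axis for the 9 genes, ordered by their no-agonist mean, with points for libraries and upright ticks for group means. Spint2 leads and Tmprss13 is last in both groups, and Tmprss4 follows Spint2 on this length.

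Levels of cell type markers are given beside the members, and they do not test whether each member was epithelial here. After each group's mean was removed, the members' log2 CPM correlated unevenly with the mean log2 CPM of the epithelial markers. The r was 0.91 for Spint1, 0.88 for St14, 0.80 for Prss22, 0.70 for Tmprss4, 0.53 for Tmprss11g and 0.51 for Spint2. It was -0.29 for Prss8, -0.60 for Tmprss2 and -0.83 for Tmprss13. All 18 epithelial markers were tested, and their summed level was 9176, 14439 and 11897 CPM without the agonist, against 7658, 6570 and 5291 CPM with it, without overlap. The largest parts of the sum were Krt7, Krt8, Krt19 and Elf3. Their means were 2053, 2240, 2121 and 1520 CPM without the agonist, against 565, 1220, 956 and 819 CPM with it. Of the 18, 14 had a log2 fold change below 0 and 4 above, with a median of -0.44. edgeR called 0 of them, and 8 were lower at its unadjusted p under 0.05. The part of the epithelial share in the members' levels was not tested. The 12 stromal markers summed to 4603 to 7253 CPM without the agonist, against 4586 to 5723 CPM with it. The 10 smooth muscle markers summed to 9239, 8553 and 21379 CPM without the agonist, against 13259, 3455 and 4182 CPM with it, with overlap. All 10 had a log2 fold change below 0, and edgeR called 0 of them.

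Sums of the other marker lists follow; they differ in genes and size and do not measure how many cells of a type there were. The immune sum was 445, 266 and 540 CPM without the agonist, against 144, 71.8 and 54.2 CPM with it. Itgam, an integrin of myeloid cells, made up 347, 224 and 455 CPM of it without the agonist, against 97.4, 25.1 and 15 CPM with it. Of the 7 immune markers tested, only Itgam and Cd68 had a log2 fold change below 0, and 5 had one above 0, with a median of 0.43. The gland list, by contrast, reached 174 and 181 CPM in agonist libraries 2 and 3 and 18.6 to 44.7 CPM in the other 4. Most of it in those 2 libraries was Cxcl15, at 82.2 and 69.8 CPM, and Aldh1a1, at 72.0 and 90.2 CPM. Foxa2, also in this list, overlapped between groups, with a log2 fold change of 0.07 ± 0.40 (SE), and 3 of the 8 gland genes were tested. The oviduct list reached 192 CPM in agonist library 1 and 12.2 to 25.9 CPM elsewhere, mostly from Ovgp1. The endothelial sum was 283 to 351 CPM without the agonist, against 390 to 563 CPM with it, and the ovary and embryo list was 0.8 to 4.3 CPM, with Cyp19a1, Cyp11a1, Zp3, Cdx2 and Prl3d1 at 0 counts in every library. Of the squamous list Dsg1a was at 0 counts in every library.

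Set against the summed epithelial markers, the 9 members together made up 22.4%, 16.9% and 22.4% of that sum without the agonist, against 23.0%, 20.0% and 23.1% with it, which overlapped (20.6 ± 3.16% and 22.1 ± 1.75%, SD, n = 3 each). Within them the genes differed. Tmprss4 was 4.48%, 3.52% and 4.35% of the marker sum without the agonist, against 2.84%, 2.71% and 1.31% with it, and Tmprss11g was 0.58%, 0.50% and 0.98% against 0.19%, 0.41% and 0.01%; both lay lower without overlap. Tmprss2, Tmprss13, Prss8 and Spint1 lay higher relative to the markers without overlap, and St14, Prss22 and Spint2 overlapped. The marker sum itself lay lower with the agonist without overlap, so a gene of constant CPM comes out higher here. In CPM, Tmprss2, Tmprss13 and Prss8 overlapped between groups and Spint1 lay lower. How many of all genes lie apart on this scale was not counted.

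Against Epcam alone, the adhesion molecule that matriptase cleaves, the members summed to 362%, 330% and 640% without the agonist, against 290%, 339% and 295% with it. Tmprss4, Tmprss11g and Prss22 lay lower relative to Epcam without overlap, Tmprss13 lay higher, and the other 5 overlapped. Tmprss4 and Tmprss11g were thus lower, and Tmprss13 higher, against either reference, while Tmprss2, Prss8, Prss22 and Spint1 depended on which was used.

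**Figure D3:**
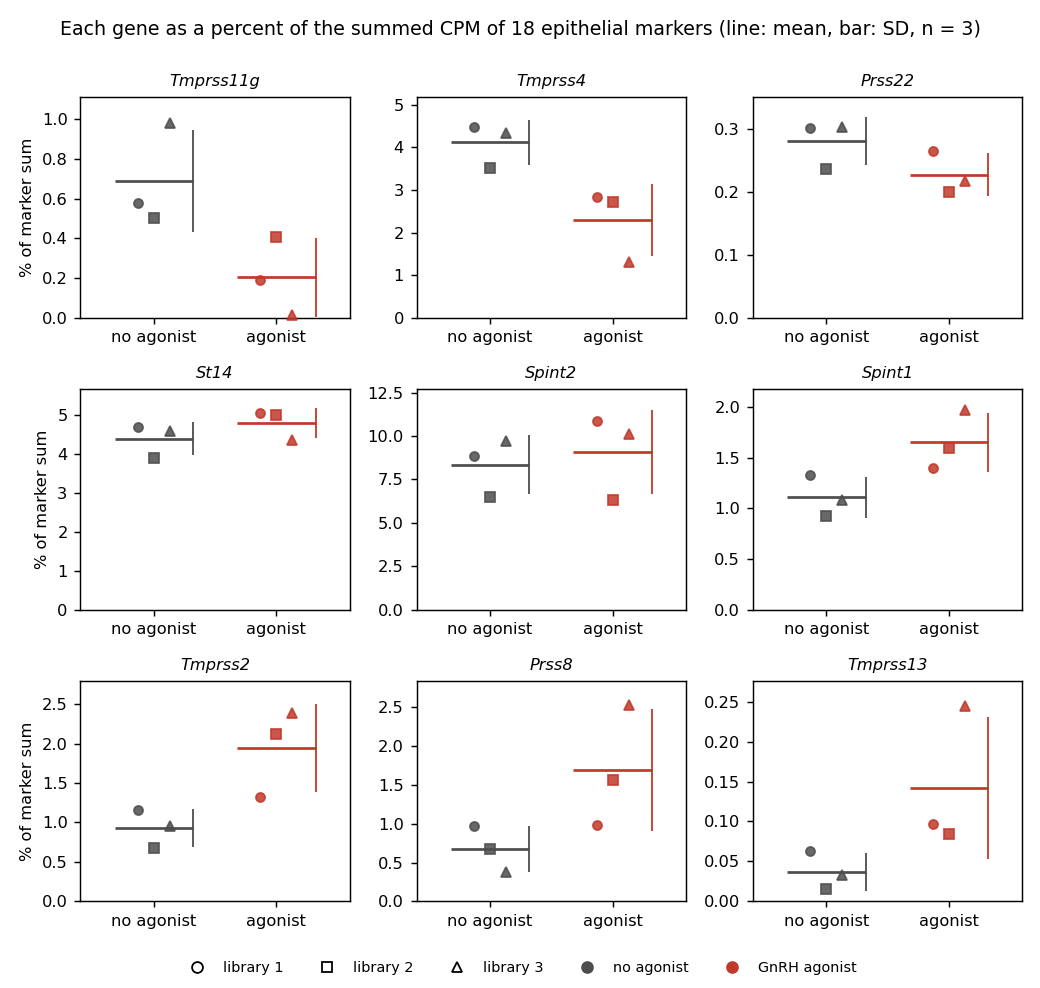
Level of each of the 9 genes as a percent of the summed CPM of 18 epithelial markers, by library, with group mean and SD. The Tmprss11g and Tmprss4 points of the agonist libraries lie below, and those of Tmprss2, Prss8, Spint1 and Tmprss13 above, the no-agonist points. The marker sum itself lay lower with the agonist.

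Positions of the members bear on the counts. In GENCODE M21 (GRCm38) Tmprss4 lies on chr9 from 45172726 to 45204092 on the minus strand and Tmprss13 on chr9 from 45319100 to 45347581 on the plus strand, 115007 bases apart. They differed in opposite directions, -1.63 and 1.12 in log2 fold change. St14 is on the same chromosome from 31089402 to 31131853, on the minus strand. Tmprss2 is on chr16 from 97564682 to 97611195 (minus), Prss22 on chr17 from 23993534 to 23998100 (minus), Spint1 on chr2 from 119237362 to 119249527 (plus) and Spint2 on chr7 from 29256323 to 29281912 (minus). Tmprss4 overlaps BC049352, which had 0.151 CPM in 1 library and 0 in the others, and Tmprss13 overlaps the antisense gene 1700003G13Rik, which had 0 counts. Prss8, on chr7 from 127925716 to 127930104, overlaps Kat8, an acetyltransferase gene on the other strand, at 19.3 to 28.2 CPM and a log2 fold change of 0.03. No source used here states whether strand was used in counting, and reads in these overlaps cannot be told apart.

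Tmprss11g lies on chr5 from 86485876 to 86518600, on the minus strand, 3297 bases from Tmprss11f and 16885 from Tmprss11a. Of its neighbours, Tmprss11c was at 0 counts in all libraries, and Tmprss11f reached at most 0.184 CPM. Tmprss11d measured 3.25, 5.66 and 52.7 CPM without the agonist, against 3.29, 0.272 and 0 CPM with it, and Tmprss11e 2.11, 3.65 and 12.3 CPM and 1.68, 0 and 0.539 CPM. Tmprss11a was low and reached its highest level, 1.49 CPM, in agonist library 2. Tmprss11g, Tmprss11d and Tmprss11e all had their highest level in no-agonist library 3. They are relatives in sequence, and no source used here states how reads that match several genes were counted.

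The 250 bases before the start of Tmprss11g and of Spint1 are shown as those of the member with the widest and the one with the narrowest spread between libraries. They are from RefSeq (GRCm38.p6), 5′ to 3′ on the gene's strand, with matches to the GC box GGGCGG (either strand) in capitals.
Tmprss11g, chr5:86518601-86518850, minus strand: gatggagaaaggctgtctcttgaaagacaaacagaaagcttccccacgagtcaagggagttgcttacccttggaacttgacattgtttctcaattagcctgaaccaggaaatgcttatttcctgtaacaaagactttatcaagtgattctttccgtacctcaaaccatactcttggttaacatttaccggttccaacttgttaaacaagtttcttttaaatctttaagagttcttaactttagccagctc
Spint1, chr2:119237110-119237359, plus strand: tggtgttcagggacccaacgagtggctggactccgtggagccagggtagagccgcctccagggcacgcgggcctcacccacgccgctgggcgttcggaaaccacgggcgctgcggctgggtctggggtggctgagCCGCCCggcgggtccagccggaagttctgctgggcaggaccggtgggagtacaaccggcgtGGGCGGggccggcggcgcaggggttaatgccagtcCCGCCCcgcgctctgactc
The RefSeq table had a promoter for 4 of the 9 members: Spint1, Spint2, Tmprss2 and Tmprss11g. The Spint1 stretch has 72.8% G and C and 3 GC boxes, Spint2 has 69.6% and 3, Tmprss2 61.6% and 0, and Tmprss11g 38.8% and 0, beside a median of 52.4% over 32851 promoters and a GC box in 32.7% of them. No stretch held a TATA box (TATAAA, in 12.4% of promoters), an AP-1 site (TGANTCA, 6.75%) or a grainyhead site (AACCGGTT, 0.116%), all searched on both strands. A match is a run of letters and no measured binding site.

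The wider protease system was followed in 7 lists of 129 genes, of which 127 were in the table and 58 were tested. edgeR's quasi-likelihood test called 0 of the 58 in either direction. Without adjustment, its p was under 0.05 for 16 lower and 3 higher genes, beside 5.09% lower and 4.17% higher over all genes tested. DESeq2 called 1 higher (Wfdc15b) and 6 lower (Tmprss11bnl, Tmprss6, Plaur, Hgfac, Serpinb1a and Serpina1a), beside 0.87% higher and 1.56% lower over its genes. The lists were chosen with earlier results of these data known, so nothing is read from these counts against those shares. The genes named below are mainly those of each list with the smallest unadjusted p, and are no survey of it. All p-values in the next paragraphs are from edgeR's quasi-likelihood test with Benjamini-Hochberg adjustment over 16581 genes.

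Of 16 other type II transmembrane proteases, 5 were tested; 1 had a log2 fold change above 0 and 4 below, with a median of -3.03. Tmprss6, known as matriptase-2, the regulator of hepcidin, measured 117, 73.4 and 94.1 CPM without the agonist, against 56.9, 26.1 and 19.5 CPM with it (log2 fold change -1.47 ± 0.41, SE; adjusted p = 0.337). Tmprss11bnl measured 7.85, 4.44 and 14.1 CPM and 1.20, 0.543 and 0.0769 CPM (-3.84 ± 0.83, adjusted p = 0.262). Neither overlapped between groups or passed the test. Tmprss11d overlapped between groups, with a log2 fold change of -4.12 ± 1.53 (SE, adjusted p = 0.483), or -1.91 without no-agonist library 3. Hpn, hepsin, overlapped too, with a log2 fold change of 0.22 ± 0.33 (SE).

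Of 26 other Prss genes, 10 were tested, 3 above 0 and 7 below, with a median log2 fold change of -0.40. Prss23 had a log2 fold change of -1.0 ± 0.32 (SE, adjusted p = 0.406) and Prss30 one of -1.90 ± 0.66 (SE, adjusted p = 0.436). Prss32 overlapped between groups, with -2.94 ± 1.42 (SE, adjusted p = 0.582), or -1.88 without no-agonist library 3. The implantation serine proteinases, which are made by uterine glands around implantation, were too low to be tested: Prss28 had 1 read in all, and Prss29 had 9 and 44 counts in agonist libraries 1 and 2 and 0 in the others. Of 25 kallikreins 2 were tested, and Klk8 had a log2 fold change of 0.75 ± 0.56 (SE, adjusted p = 0.746), or 0.37 without agonist library 3 and 1.27 without no-agonist library 2.

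The plasminogen activator list had 5 of 7 genes tested, 2 above 0 and 3 below. The 2 activators had log2 fold changes of opposite sign. Plat, tissue plasminogen activator, measured 156, 31.4 and 57.9 CPM without the agonist, against 156, 237 and 471 CPM with it (log2 fold change 1.82 ± 0.64, SE; adjusted p = 0.443). No-agonist library 1 was about as high as agonist library 1, and the log2 fold change of Plat was 2.69 without no-agonist library 1. Plau, urokinase, measured 26.3, 42.6 and 25.9 CPM and 19.3, 12.0 and 5.77 CPM (-1.36 ± 0.44, adjusted p = 0.406), and its receptor Plaur had -1.98 ± 0.47 (adjusted p = 0.304). None passed the test.

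Of 15 known substrates and partners, of which Epcam and Cldn7 are also in the epithelial marker list, 12 were tested, 5 above 0 and 7 below, with a median log2 fold change of -0.36. F2rl1, the receptor PAR2, measured 39.8, 66.7 and 43.0 CPM without the agonist, against 27.8, 29.7 and 24 CPM with it (-0.87 ± 0.25, SE; adjusted p = 0.340). Hgfac, the activator of hepatocyte growth factor, measured 50.8, 109 and 112 CPM and 42.0, 12.7 and 7.54 CPM (-2.13 ± 0.63, adjusted p = 0.369). Cldn7, a tight junction claudin and partner of Epcam, measured 422, 594 and 591 CPM and 328, 361 and 171 CPM (-0.90 ± 0.32, adjusted p = 0.462). These 3 did not overlap between groups, and none passed the test.

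The other named substrates and receptors lay closer to their error. Hgf had a log2 fold change of 0.69 ± 0.68 (SE, adjusted p = 0.817), its receptor Met -0.43 ± 0.20 (adjusted p = 0.570) and Epcam -0.29 ± 0.30 (adjusted p = 0.832). Met also did not overlap between groups, at 88.8, 88.1 and 117 CPM without the agonist, against 79.5, 76.3 and 63.3 CPM with it. Its log2 fold change kept its sign in 14 of 14 alternative fits, from -0.49 to -0.26, but these fits reuse the same libraries. The sodium channel subunits Scnn1a and Scnn1b had 0.60 ± 0.57 (adjusted p = 0.808) and 0.21 ± 0.56 (adjusted p = 0.951), and Scnn1g was too low to be tested. The values of Hgf, Scnn1a, Scnn1b and Epcam depend on single libraries. Hgf was at -0.03 without agonist library 3 and at 1.37 without no-agonist library 1. Scnn1b was at -0.18 without no-agonist library 2 and at 0.65 without no-agonist library 1, and Scnn1a at 0.26 and 1.14. Epcam was at -0.06 without no-agonist library 2 and at -0.51 without agonist library 1.

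Of 31 other inhibitors, 18 were tested, 12 above 0 and 6 below, with a median log2 fold change of 0.17. Serpinb1a, an inhibitor of neutrophil proteases, measured 73.7, 99.9 and 94.2 CPM without the agonist, against 31.4, 39.8 and 39.9 CPM with it (-1.27 ± 0.20, SE; adjusted p = 0.209), without overlap. Wfdc15b measured 9.13, 15.8 and 7.07 CPM and 15.9, 71.8 and 49.2 CPM (2.09 ± 0.56, adjusted p = 0.329). Serpina1a had -4.17 ± 0.98 (adjusted p = 0.300), and Slpi, an epithelial elastase inhibitor, 1.34 ± 0.54 (adjusted p = 0.513). None of these passed the test.

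Of 9 proprotein convertases, which cut precursors such as those of growth factors, 6 were tested, 2 above 0 and 4 below. Pcsk6 had a log2 fold change of -0.73 ± 0.28 (SE, adjusted p = 0.503), Pcsk7 -0.35 ± 0.18 (adjusted p = 0.623) and Furin -0.44 ± 0.33 (adjusted p = 0.742). Furin was at -0.13 without no-agonist library 2 and at -0.72 without agonist library 2.

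**Figure D4:**
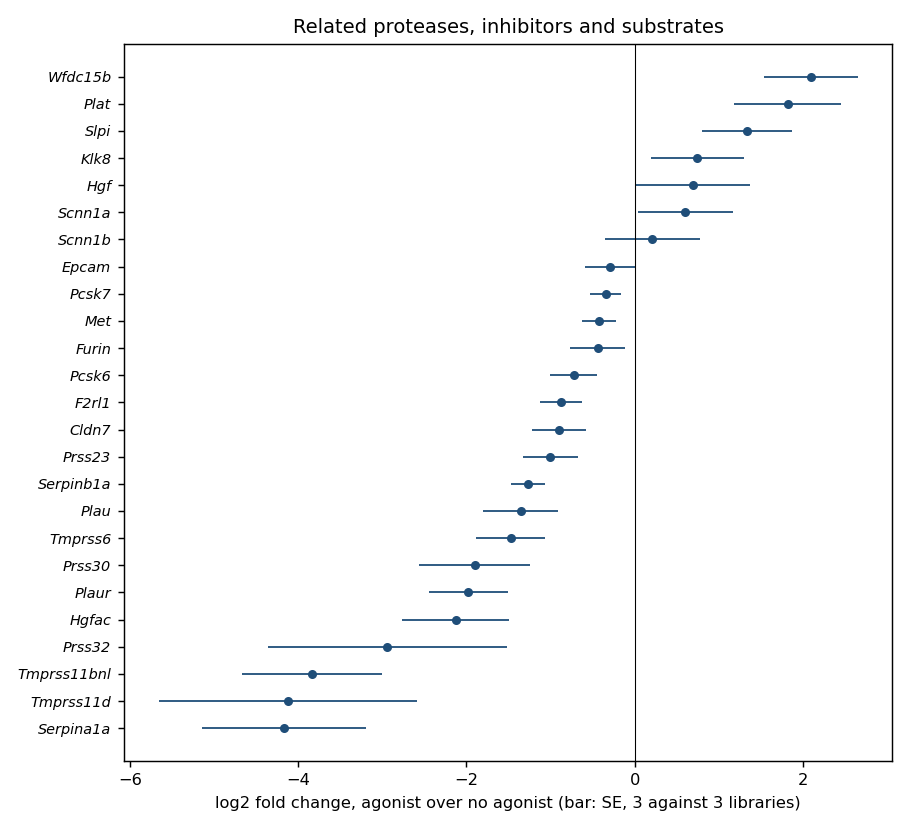
Log2 fold change of the agonist over the no-agonist group for the named related genes, with bars for the SE from edgeR (3 libraries against 3). None of them passed an adjusted p under 0.05, and the fold changes run from Serpina1a at -4.17 to Wfdc15b at 2.09. Most were named for the smallest unadjusted p in their list, so they are no survey of the lists.

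The mean of the centred log2 CPM of the 9 members was 0.29, 0.34 and 0.44 without the agonist, against -0.10, -0.19 and -0.77 with it. The members did not share 1 pattern: 18 of their 36 pairs correlated positively over the 6 libraries. In agonist library 3, Tmprss11g stood at -4.76 on this scale, on 9 counts, and Tmprss4 at -1.89. Tmprss2, Tmprss13 and Prss8 stood at 0.16, 1.22 and 0.64 there. The mean is thus weighted towards the members that vary most, Tmprss11g and Tmprss4. Among 11152 other genes of at least 10 CPM on average, the 5 with the highest Pearson correlation to that mean over the 6 libraries included Aim1 (r = 0.998), Slc44a4 (0.996), Tgm2 (0.995) and Chst8 (0.991). Tgm2, a transglutaminase, had means of 761 CPM with and 2191 CPM without the agonist. After each group's mean was removed, the 5 highest included Aim1 (0.995), Tmem256 (0.994), Fam195b (0.994) and Slirp (0.992). With 6 points many genes come this close: 138 passed r = 0.95 over the libraries, 84 after removing the group means, and 123 had Spearman's rho of 1. All points share libraries, depth and the cell mixture, and the values are a description.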

How the data were processed

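RNA of 6 endometrium libraries was sequenced on an Ion Proton, and the deposited table holds the authors' whole-number counts per gene symbol, counted with HTSeq 0.6.1 on mm10/GRCm38 per the submitters' processing notes. No source used here names the aligner, the annotation or the strand setting. Groups follow the sample labels, agonist against none. From the counts, edgeR 4.0.16 (R 4.3.3; TMM factors, filterByExpr, quasi-likelihood F-test, Benjamini-Hochberg adjusted p under 0.05) was fitted to all 16581 genes passing the filter; limma 3.58.1 and DESeq2 1.42.0 were alternatives, along with other scalings, filters and leaving out each library. The code was tested on simulated data. CPM use TMM-scaled totals. P-values measure the spread between libraries, which no label ties to separate animals.

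The members and lists were chosen with earlier results of these data known. Named were all 9 members; of each related list up to 3 tested genes with the smallest unadjusted p and at least 1 CPM, plus 12 fixed genes (Scnn1a, Scnn1b, Scnn1g, F2rl1, Hgf, Met, Epcam, Cldn7, Prss28, Prss29, Plau, Slpi); and the 5 genes most like the members' mean pattern in each of 2 ways, of which 1 gene is not reported here. Hpn, Kat8, Itgam, Cd68, Ovgp1, Rn18s-rs5 and the neighbours and overlapping genes of members were named after their values were seen. So were Krt7, Krt8, Krt19, Elf3, Cxcl15, Aldh1a1 and Foxa2. Lengths and positions are from GENCODE M21.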

Additional observations from a re-analysis of the deposited data

How the results depend on the processing

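All 9 members kept the sign of their log2 fold change in 14 of 14 alternative fits. Tmprss4 ranged from -1.94 to -1.27 and Tmprss11g from -3.50 to -1.97. These fits reuse the same libraries or leave out 1, and the members were chosen from this contrast. The constant sign is therefore no independent support. Over all genes, 141 were higher and 253 lower with DESeq2, 104 and 164 with edgeR's likelihood ratio test, and 8 and 28 with no filter; leaving out 1 library gave 0 higher and 0 to 1 lower (1 without no-agonist replicate 2). Of the related genes, 7 were called by DESeq2 and 5 by the likelihood ratio test. Of the named related genes, Scnn1b kept its sign in 12 of 14 and Hgf in 13 of 14 alternative fits. The members' median log2 fold change was -0.54 with library totals alone, where that of all genes was 0.183, and -0.86 to -0.50 when 1 library was left out. The members' share of the epithelial markers differed by 1.49 percentage points (agonist minus no agonist). It differed by -0.34 to 2.50 when 1 library was left out. With Epcam as the reference it differed by -136, where the groups overlapped and no-agonist library 3 was highest, at 640%. The mean log2 ratio of the members to the summed markers was -6.75 without the agonist and -6.61 with it, also overlapping. The direction of the share thus rests on no-agonist replicate 2 and on the reference. No paired analysis was possible because replicate numbers follow accession order. Depth limits Tmprss13 and agonist library 3 of Tmprss11g most, and the design has 3 libraries a group.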
